A study of Homo sapiens with 26 samples.

Results

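The mitochondrial chaperones and quality-control proteases described here are 10 genes chosen by name: HSPD1, HSPE1, TRAP1, DNAJA3, LONP1, CLPP, CLPX, CLPB, AFG3L2 and YME1L1. All 10 have an entry among the 58849 entries of the ribosome profiling files and among the 60663 genes of the RNA-seq files, although HSPE1 shares its ribosome profiling entry with the neighbouring MOB4 and the readthrough gene HSPE1-MOB4. Enrichment in LOCL-TL, the log2 ratio of pulldown to total input from the same lysate, was compared between the 3 locations of the biotin ligase and between the RNA-seq groups.

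All libraries came from HEK293T, a line of human embryonic kidney origin, in which the endogenous ribosomal protein RPL29 carries the Avi tag and the light-activated biotin ligase LOV-BirA marks nearby ribosomes. For ribosome profiling, polyclonal sorted lines carried LOV-BirA at the ER (fused to Sec61β, SFFV promoter), at the outer mitochondrial membrane (OMM, fused to the transmembrane domain of OMP25, EF1α promoter) or free in the cytosol, each treated with cycloheximide (CHX), an inhibitor of elongation, with 2 replicates and a total input and a pulldown library each, 12 libraries. For RNA-seq of intact mRNA, all lines carried LOV-BirA on OMP25. A wild-type (WT) line with a negative control gRNA, 1 monoclonal AKAP1 null line and 1 monoclonal LARP4 null line had 2 replicates each, and cells without CHX, whose genotype or gRNA the labels do not name and which had a shorter pulse of light and biotin, had 1. CHX in the null lines is taken from the general protocol. With the total inputs these make 14 libraries. The study's text calls replicates at the OMM biological, and the labels do not say how replicates were made, so p-values measure the spread between these samples, which may be technical.

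Proteins imported into mitochondria must be unfolded to cross the membranes, and folded again inside. In the matrix this is done by the chaperonin of HSPD1 rings with HSPE1 lids, by the mitochondrial HSP70 with its J-domain partner DNAJA3, and by TRAP1, the HSP90 of mitochondria. LONP1 and the CLPX-CLPP complex are ATP-driven proteases that degrade damaged or unassembled matrix proteins, CLPB is a disaggregase of the intermembrane space, and AFG3L2 and YME1L1 are the proteolytic subunits of the AAA proteases of the inner membrane, facing the matrix and the intermembrane space respectively. All 10 proteins are encoded in the nucleus, and most begin with a positively charged presequence that directs import.

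The first 30 codons are shown for 4 of these genes, whose responses described further on differ: TRAP1, with large enrichment at the OMM, CLPB, with the largest over all exons, and HSPE1 and CLPP, whose enrichment in RNA-seq was lower in AKAP1 null than in WT cells. They are taken from GENCODE 44 transcripts on GRCh38, 5′ to 3′, with the codons of lysine and arginine in capitals.
TRAP1: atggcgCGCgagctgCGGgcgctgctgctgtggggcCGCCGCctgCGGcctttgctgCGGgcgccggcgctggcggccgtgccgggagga
CLPB: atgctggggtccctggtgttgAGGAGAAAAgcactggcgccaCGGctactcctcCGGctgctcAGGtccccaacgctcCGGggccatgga
HSPE1: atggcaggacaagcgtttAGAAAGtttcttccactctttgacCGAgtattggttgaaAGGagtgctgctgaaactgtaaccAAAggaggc
CLPP: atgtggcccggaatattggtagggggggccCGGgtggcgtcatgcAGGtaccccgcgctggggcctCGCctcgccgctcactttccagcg
In these stretches 6 codons of TRAP1, 7 of CLPB, 5 of HSPE1 and 3 of CLPP encode lysine or arginine. Over the first 30 residues the net charge was positive for all 10 members, from 1 in YME1L1 to 7 in CLPB. For comparison, it was -9 in HSP90AA1 and -7 in HSP90AB1, the cytosolic relatives of TRAP1, with which TRAP1 shares 34.8% and 34.6% of aligned residues, and 2 in DNAJA1 and 1 in DNAJA2, the cytosolic relatives of DNAJA3. The proteins range from 102 residues in HSPE1 to 959 in LONP1. Their most hydrophobic window of 19 residues had a mean Kyte-Doolittle hydropathy of 2.35 in AFG3L2 and 1.95 in YME1L1, both proteins of the inner membrane, and of 0.66 to 1.65 in the other 8.

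Depth differed widely between libraries. Ribosome profiling totals ran from 1025114 estimated coding counts in mito pulldown replicate 1 (mito denotes the OMM libraries) to 19539527 in ER pulldown replicate 1, and RNA-seq totals from 38347615 to 100840544 counts. In mito pulldown replicate 1 the members with the fewest coding counts were CLPX with 35, DNAJA3 with 37.67, HSPD1 with 39.64, LONP1 with 43.33 and CLPB with 59.16, so the OMM values of these 5 are the least precise. The cytosol replicates stood apart from each other, with a Pearson r of 0.9106 across genes between the total inputs on log2 counts, against 0.9814 at the ER and 0.9699 in mito. LONP1, for example, had 93.87 coding CPM (the count scaled to the total of its library) in cytosol total input 2 and 30.45 in total input 1. According to the file headers, cytosol replicate 1 had its pulldown and its input on different sequencing runs, and cytosol replicate 2 had a run of its own, so location, replicate and run cannot be told apart there. VIM, INA, NEFM and KRT18, which HEK293 cells express, were detected in every library. KRT8, which they also express, was sparse at the OMM, with 0.925 and 5.7 estimated counts in mito pulldowns 1 and 2. In cytosol total inputs 1 and 2 NEFM was at 68.34 and 432.3 CPM, KRT8 at 2.337 and 25.22 and INA at 219 and 43.88. The part of these differences in the results was not tested. The blood and liver genes PTPRC, CD3E, HBB and ALB were at 0 or at most 0.1964 CPM.

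The deposited coding counts cover a limited number of positions per gene, for several members a small share of the coding sequence. It was 91 positions, or 5.3% of the coding length, for HSPD1, 19.1% for LONP1, 20.0% for DNAJA3, 27.2% for CLPB and 47.1% for CLPX, and from 66.8% to 87.7% for CLPP, TRAP1, AFG3L2 and YME1L1. For CLPX the 896 counted positions equal in number those that code in at least 1 transcript of GENCODE 44 and are untranslated in none, which lie within codons 1 to 307 of 633. For LONP1 the 551 positions match in the same way, within codons 31 to 251 of 959. TRAP1 and CLPP match too, while for the other 6 members the numbers differ, so where their counted positions lie is not known. Footprints over all exons were therefore tested beside the coding counts.

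Ribosomes translating TRAP1 and AFG3L2 were enriched over 3-fold at the OMM, and those on HSPE1 about 2.11-fold. TRAP1 (chr16:3651639-3717553, minus strand) had 341.9 and 288.9 coding CPM in the total inputs and 1081.6 and 1066.8 in the pulldowns, and both pulldowns lay far above both inputs (log2 enrichment 1.78 ± 0.10 SE, n = 2, adjusted p = 1.05e-10). AFG3L2 (chr18:12328944-12377227, minus strand) went from 98.71 and 109.1 CPM to 395.0 and 364.9 (1.86 ± 0.12, adjusted p = 9.39e-10). HSPE1 (chr2:197500140-197503449, plus strand) had 134.5 and 216.7 CPM in the inputs and 265.5 and 481.7 in the pulldowns (1.08 ± 0.11, adjusted p = 2.56e-07), a value that belongs to its merged entry. YME1L1 (chr10:27110111-27155266, minus strand), CLPB (chr11:72285495-72434680, minus strand) and CLPP (chr19:6361531-6370242, plus strand) were higher in the pulldown by smaller amounts, with log2 values of 0.52 ± 0.10, 0.49 ± 0.17 and 0.46 ± 0.13. Thus 6 of 10 members were called higher and 0 lower, where 17.7% of all 7177 entries tested were higher and 45.3% lower. The members' median was 0.48, against -0.36 over all entries. Scaling by the trimmed mean of M values (TMM) gave 7 members higher and 0 lower, beside 26.3% and 25% of entries. The call on CLPB was lost without either mito replicate and that on CLPP without mito replicate 2, with values between 0.38 and 0.63 over these fits.

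HSPD1, LONP1, CLPX and DNAJA3 were not called on coding counts. LONP1 (chr19:5691834-5720572, minus strand) had log2 values of 0.00 and 0.27 in the replicates, CLPX (chr15:65148219-65185342, minus strand) -0.01 and -0.52, DNAJA3 (chr16:4425805-4456775, plus strand) -0.11 and -0.46, and HSPD1 (chr2:197486584-197516737, minus strand) 0.01 and -0.14, with a 95% interval for HSPD1 from -0.79 to 0.64. The interval for HSPD1 rests on a spread estimated over all 12 libraries, its cytosol replicates at -0.98 and 0.83 included. Over all exons the picture was different for 3 of these 4 members. HSPD1 then had 427.6 and 614 exon CPM in the total inputs and 879.5 and 1351.5 in the pulldowns, so that each pulldown exceeded both inputs (1.09 ± 0.11). LONP1 went from 104.7 and 79.99 to 213 and 155.5 exon CPM (0.99 ± 0.09), and CLPX from 48 and 60.19 to 83.62 and 107 (0.82 ± 0.11). TRAP1 (1.44 ± 0.08), HSPE1 (0.70 ± 0.10) and YME1L1 (0.32 ± 0.09) were lower over all exons than on coding counts, AFG3L2 was at 1.83 ± 0.11 and CLPP at 0.63 ± 0.09, and the call on YME1L1 was lost without mito replicate 2 (0.26). The most enriched member over all exons was CLPB, with 112 and 103.5 exon CPM in the inputs and 582.3 and 462.5 in the pulldowns (2.27 ± 0.09, adjusted p = 8.94e-13).

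Counted over all exons, 9 of 10 members were higher and 1 was lower at the OMM, against 17.5% higher and 48.2% lower of 9036 entries. The one lower was DNAJA3, at -0.26 ± 0.10 (adjusted p = 0.032), which lost its call without either mito replicate, lay close to the median of all entries, -0.37, and was 0.06 and not called under TMM. Exon counts include untranslated regions and positions shared with neighbours. TRAP1 shares 1477 exon positions with DNASE1, AFG3L2 837 with TUBB6, YME1L1 443 with MASTL and LONP1 42 with RPL36, all on the opposite strand. CLPB shares 835 and 224 with lncRNAs of the opposite strand, and HSPE1 shares 135 with HSPD1 on the opposite strand. On the same strand HSPE1 shares 192 with HSPE1-MOB4 and TRAP1 shares 65 with a lncRNA. The strand setting of the counting is not given in the sources used here.

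For several members the OMM value differed between the counted coding positions and the other exon positions. At exon positions outside the counted coding positions, the log2 values of the replicates were 2.62 and 2.42 for CLPB, 1.23 and 1.64 for CLPX, 1.25 and 1.11 for LONP1 and 1.08 and 1.18 for HSPD1, all above their values on counted coding positions. CLPP was also higher outside (1.07 and 0.73) than inside (0.38 and 0.54). TRAP1 was lower outside (1.08 and 1.19) than inside (1.66 and 1.88), and so were HSPE1 (0.13 and -0.18) and YME1L1 (-0.61 and -0.47). DNAJA3 had no common direction, at -0.27 and -0.23 outside and -0.11 and -0.46 inside. AFG3L2 had too few footprints outside to be measured. For HSPE1 the other exon positions belong to its merged entry, which has 3653 exon positions where HSPE1 itself has 1823. These differences between positions within a gene or merged entry were not tested, and the deposited counts do not place single footprints along a transcript.

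**Figure D1:**
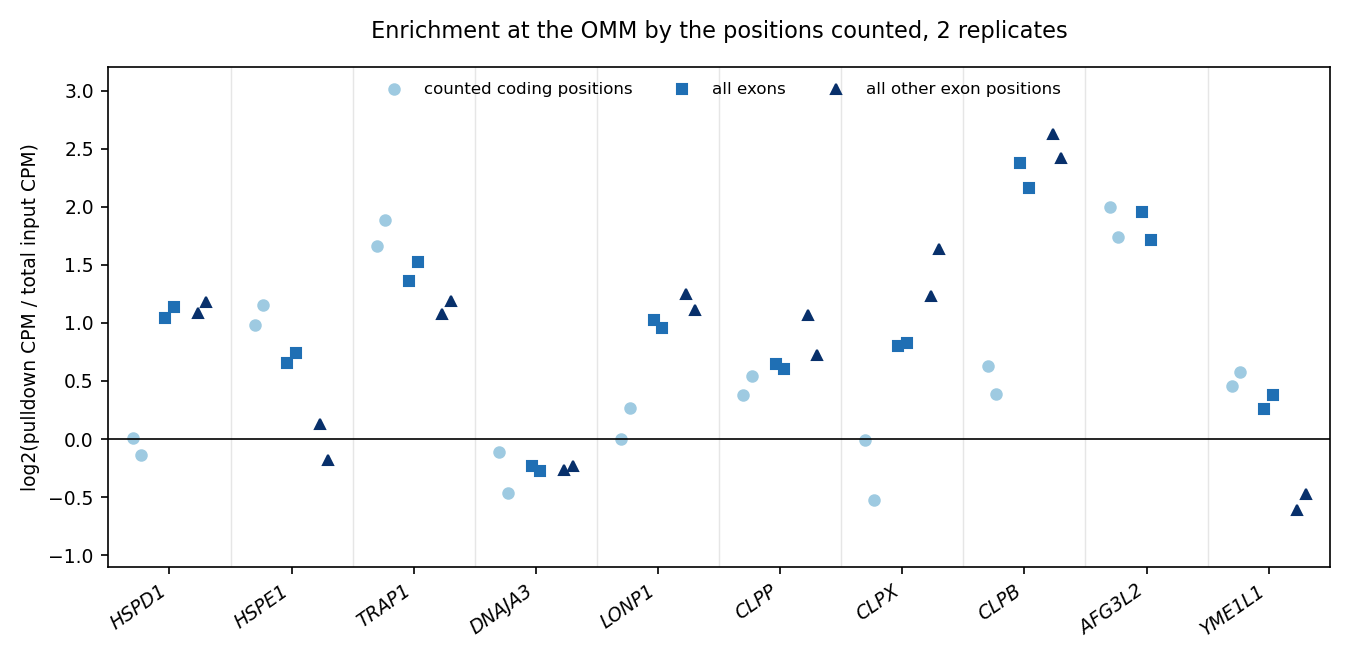
Log2 pulldown over total input at the OMM for each member, counted over the deposited coding positions, over all exons and over all other exon positions, with 1 point for each of 2 replicates. CLPB, CLPX, LONP1, HSPD1 and CLPP lie higher over all exons and at the other exon positions than on counted coding positions, and the replicates of CLPB at the other positions are at 2.62 and 2.42.

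At the ER AFG3L2 was the one member called higher. The members' median lay above that of all entries on coding counts (-0.50 against -0.67) but not over all exons (-0.68 against -0.64). AFG3L2 had 74.97 and 108.0 coding CPM in the total inputs and 124.2 and 158.9 in the pulldowns (0.64 ± 0.11, adjusted p = 3.61e-05), so its ranges did not overlap. HSPD1, HSPE1, TRAP1, LONP1, CLPX and CLPB were lower, from -0.46 ± 0.10 for HSPE1 to -0.99 ± 0.14 for CLPX, and DNAJA3, CLPP and YME1L1 were not called, at -0.04, -0.05 and -0.04. With 1 member higher and 6 lower, these counts compare with 20.1% higher and 71.6% lower of 7875 entries. The call on HSPE1 was lost without ER replicate 1 (-0.30, and -0.28 over all exons). The median of all entries was -0.04 under TMM, which turned HSPE1 to 0.18, LONP1 to 0.09, YME1L1 to 0.60, CLPP to 0.58 and DNAJA3 to 0.60 and gave 4 members higher and 2 lower, TRAP1 and CLPX, beside 29.5% of entries higher and 25.7% lower. Over all exons 1 member was higher and 7 were lower, beside 21% and 71.6% of 9628 entries. HSPD1 was lowest at -1.38, and DNAJA3 was then at -0.71.

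With LOV-BirA in the cytosol 0 of 10 members were called by edgeR, where 2.08% of 7648 entries were higher and 6.28% lower, and DESeq2 called 0 as well. At an unadjusted p below 0.05 there were 4 members, beside 1638 of all entries. TRAP1 had 221.8 and 266.6 CPM in the inputs and 209.7 and 276.9 in the pulldowns, and AFG3L2 76.18 and 88.48 against 71.68 and 110.9, so inputs and pulldowns overlapped for both. The replicates disagreed for HSPD1, whose log2 values were -0.98 and 0.83. Leaving out replicate 1 gave a call on HSPD1 as higher (0.83). Leaving out replicate 2 gave calls on HSPD1 as lower (-0.98) and on DNAJA3 (0.55) and CLPP (0.43) as higher. Over all exons CLPP alone was called higher (0.33 ± 0.08, adjusted p = 0.019), beside 3.65% higher and 7.11% lower of 9606 entries, and its call was lost without cytosol replicate 1, which left 2 other members called, HSPD1 at 0.43 and TRAP1 at 0.29.

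**Figure D2:**
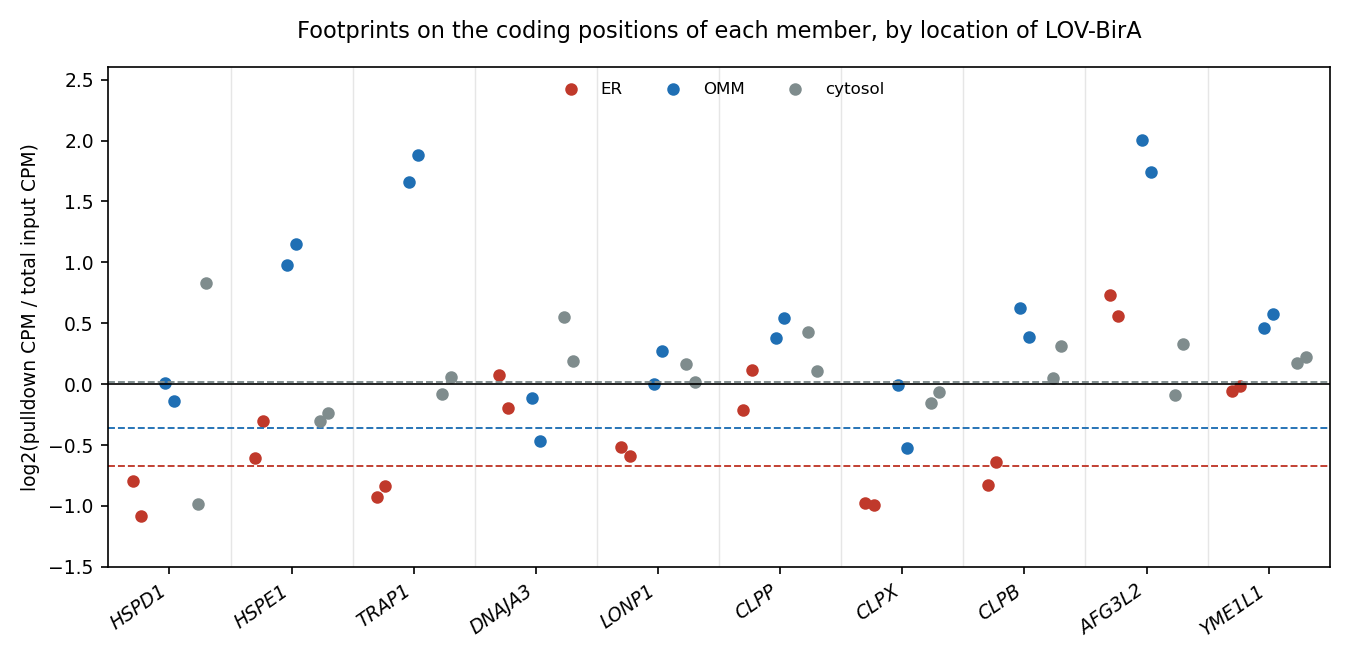
Log2 pulldown over total input on coding counts for each member and lysate at the ER (red), the OMM (blue) and in the cytosol (grey), 2 replicates each, with dashed lines at the median of all entries. TRAP1 and AFG3L2 at the OMM lie between 1.66 and 2.00, above all their ER and cytosol points, and the cytosol points of HSPD1 lie at -0.98 and 0.83.

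The direct test of OMM against cytosol enrichment asks whether a gene is more enriched at the OMM than the same pulldown gives for a freely diffusing ligase. TRAP1 (1.79 ± 0.14), AFG3L2 (1.76 ± 0.17), HSPE1 (1.35 ± 0.15) and YME1L1 (0.33 ± 0.13, adjusted p = 0.042) were higher and DNAJA3 was lower (-0.69 ± 0.25, adjusted p = 0.0232), 4 and 1 of 10 members against 17.4% and 38.9% of 6910 entries. TMM, which moved the median of all entries from -0.34 to -0.04, gave 6 higher and 0 lower, beside 25.2% and 21.3% of entries. CLPB, CLPP, HSPD1, LONP1 and CLPX were not called, at 0.32, 0.19, 0.07, 0.06 and -0.23. HSPD1 turned from -0.91 without cytosol replicate 1 to 0.91 without cytosol replicate 2. Over all exons 8 members were higher and 0 lower, beside 16.8% and 41.1% of 8851 entries. CLPB had the largest difference (2.30), followed by AFG3L2 (1.69), TRAP1 (1.23), LONP1 (1.11), CLPX (1.06), HSPD1 (1.00), HSPE1 (0.78) and CLPP (0.30), whose call was lost in 3 of the 4 fits without 1 replicate. DNAJA3 at -0.19 and YME1L1 at 0.17 were not called. Without mito replicate 2 the coding count fell from 5 called members to 3, as DNAJA3 and YME1L1 were lost. Both calls were also lost without cytosol replicate 1, and that on YME1L1 without mito replicate 1.

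Against the ER, OMM enrichment was higher for 8 of 10 members and lower for 0, beside 31.6% and 18.6% of 7125 entries. TRAP1 had the largest difference at 2.66 ± 0.14, followed by HSPE1 at 1.54 ± 0.15, CLPB at 1.24 ± 0.22 and AFG3L2 at 1.22 ± 0.16. HSPD1 (0.85 ± 0.42) and DNAJA3 (-0.26 ± 0.25) were not called. The replicates of HSPD1 were at 0.01 and -0.14 at the OMM and at -0.79 and -1.09 at the ER. Its SE uses the spread shared by all 12 libraries, those of the cytosol included. With 1 replicate left out its difference ran from 0.72 to 1.01. Under TMM 4 members were higher, beside 14.7% of entries. LONP1 (0.70), CLPX (0.65) and CLPP (0.52) each lost their call in 3 of the 4 fits that left out 1 replicate, and 5 members were called without ER replicate 1. Over all exons all 10 members were higher at the OMM than at the ER, from 0.40 for YME1L1 to 2.98 for CLPB, beside 31% higher and 21% lower of 9000 entries, with a median difference over all entries of 0.22. Of these calls, that on YME1L1 was lost without ER replicate 1 and without mito replicate 2, and that on DNAJA3 without ER replicate 2.

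Relatives and partners of these genes were described in the same way. Of 29 further genes of mitochondrial protein quality control and processing, 21 could be tested at the OMM on coding counts, 9 were higher and 1 lower, with a median of 0.47. The highest were PMPCA (3.25 ± 0.11), a subunit of the matrix processing peptidase, MIPEP (2.59 ± 0.13), the intermediate peptidase, OMA1 (2.46 ± 0.13), an inner membrane protease, and OXA1L (2.39 ± 0.13), the inner membrane insertase. The one lower was DNAJC11 at -0.35, which TMM put at -0.04 with no call, and TMM gave 15 higher and 0 lower in this list. Over all exons 16 of 26 tested were higher and 1 lower, with a median of 0.61, beside 17.5% and 48.2% of entries. In the replicates PITRM1, not tested on coding counts, was then at 2.49 and 2.52. PMPCB was at 2.45 and 2.33 and OXA1L at 1.21 and 1.29. Of 26 cytosolic chaperones and chaperonin subunits, 23 were tested, 1 was higher and 18 lower, beside the 45.3% of all entries that were lower, with a median of -0.60 (2, 12 and -0.29 under TMM). HSPA4L (-1.11), HSPA4 (-0.87), HSP90AB1 (-0.85) and CCT2 (-0.81) were the most depleted. In the HSP90 family TRAP1 was enriched, HSP90AB1 was depleted, and HSP90AA1 was at -0.41, which TMM moved to -0.10 with no call. HSP90B1, the HSP90 of the ER lumen and the closest of the 3 to TRAP1 with 35.4% of aligned residues shared, was higher at the OMM on coding counts (1.20 ± 0.23, adjusted p = 0.000195) but at -0.13 and not called over all exons, where TRAP1 was at 1.44. On coding counts HSP90B1 was also higher at the ER (1.13) and in the cytosol (0.71), and its OMM against cytosol difference of 0.49 was not called. Over all exons HSP90B1 was higher at the ER (2.44) and not called in the cytosol (-0.008). Its OMM against ER difference over all exons was -2.57, called lower. In the DNAJA family DNAJA3, which shares 35.5% of aligned residues with DNAJA1, was at -0.30, DNAJA1 at -0.64 and DNAJA2 at 0.10 on coding counts, of which DNAJA1 alone was called. Over all exons DNAJA2 turned to -0.86 and was called lower, beside -0.65 for DNAJA1 and -0.26 for DNAJA3. At the ER 4 of 22 tested genes of the further mitochondrial list were higher and 11 lower (11 and 4 under TMM), and 0 of 23 cytosolic chaperones were higher and 22 lower (1 and 15 under TMM), beside 20.1% of all entries higher and 71.6% lower (29.5% and 25.7% under TMM).

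In RNA-seq of intact mRNA, HSPD1 was the most abundant member in WT total input, with 185.8 and 192.6 CPM per kb of exon. The length used covers the annotated exons of a gene, not those of the expressed transcript, so the order of genes is approximate. HSPE1 followed with 90.55 and 100.5, then TRAP1 with 44.82 and 46.66 and YME1L1 with 31.5 and 31.17. LONP1 (19.42 and 18.47) and DNAJA3 (18.56 and 17.23) overlapped, as did AFG3L2, CLPX and CLPP, which lay between 9.407 and 15.53. CLPB was lowest on this scale at 8.534 and 7.12, although its CPM (106.1 and 88.49) lay above those of CLPP (41.96 and 42.82).

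The RNA of 7 members was enriched at the OMM in WT cells and that of 1 was depleted, while 20.2% of 13856 genes were higher and 45.6% lower. HSPE1 went from 165.1 and 183.3 CPM in the total inputs to 468.6 and 609.1 in the pulldowns (1.62 ± 0.12), CLPP from 41.96 and 42.82 to 94.52 and 101.4 (1.21 ± 0.10) and HSPD1 from 1417.5 and 1469.2 to 2679.4 and 2952.6 (0.96 ± 0.10), each without overlap. TRAP1 (0.84 ± 0.12), AFG3L2 (0.71 ± 0.16), LONP1 (0.44 ± 0.09) and CLPB (0.27 ± 0.10) were higher by less, YME1L1 (0.19) and CLPX (-0.13) were not called, and DNAJA3 was lower at -0.34 ± 0.09. Under TMM, where the all-gene median was 0.01 instead of -0.28, 8 members were higher and 0 lower, beside 31% and 27.8% of genes. Leaving out WT replicate 1 or 2 left 5 or 4 members called, since LONP1, CLPB and DNAJA3 lost their calls in both cases and AFG3L2 lost its call without WT replicate 2. Calls over all genes were fewer in these fits as well, in both directions. The members with the largest RNA enrichment in WT, HSPE1 and CLPP, encode the shortest proteins of the group (102 and 277 residues), whereas AFG3L2 and TRAP1 led in footprints on coding counts and CLPB over all exons. Footprints and RNA were not tested against each other.

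The targeted genes were checked first in the null lines. AKAP1, a scaffold protein of the OMM that binds RNA, had 114.5 and 119.5 CPM in WT total input and 32.15 and 20.34 in AKAP1 null cells, and the groups did not overlap, although with a log2 difference of -2.15 ± 0.22 its adjusted p was 0.242 in edgeR. DESeq2 called this fall (adjusted p = 2.99e-17) and that of LARP4 below (adjusted p = 4.87e-29). LARP4, an RNA-binding protein of the La family, had 225.0 and 231.3 CPM in WT and 79.34 and 73.96 in LARP4 null cells, without overlap (-1.56 ± 0.12, adjusted p = 0.0405). That call was lost with the replicate number as a block (adjusted p = 0.0696) and without any 1 of the 4 replicates, where the adjusted p ran from 0.095 to 0.276.

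In AKAP1 null cells the RNA of 9 of 10 members was higher in the pulldown than in the total input, DNAJA3 being the exception, and 0 were lower, beside 13.9% and 28.1% of genes (9 and 0 beside 20% and 20.7% under TMM). HSPD1 had 1699.6 and 1581.3 CPM in the inputs and 8531.2 and 8986.5 in the pulldowns (2.42 ± 0.10). AFG3L2 went from 108.4 and 89.17 to 314.9 and 437.1 (1.92 ± 0.17), TRAP1 from 201.9 and 231.5 to 568.6 and 872.4 (1.70 ± 0.12) and CLPB from 86.43 and 88.96 to 241.0 and 311.2 (1.64 ± 0.10). HSPE1 (0.36 ± 0.11) and CLPP (0.52 ± 0.10) lost their calls without either AKAP1null replicate, at 0.32 to 0.41 and 0.47 to 0.57. Over all genes, calls in both directions were fewer in these fits as well. In LARP4 null cells 6 members were higher and 1 lower beside 22.8% and 30% of genes (7 and 0 beside 27.9% and 25% under TMM), with HSPE1 highest at 0.97 ± 0.11.

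Compared with WT, loss of AKAP1 went with higher enrichment of 7 members and lower enrichment of 2. HSPD1 had the largest rise (1.45 ± 0.14, 95% interval 1.14 to 1.76, adjusted p = 0.00044), followed by CLPB (1.38 ± 0.14), AFG3L2 (1.20 ± 0.23), CLPX (1.12 ± 0.18), YME1L1 (0.91 ± 0.19), TRAP1 (0.87 ± 0.17) and LONP1 (0.63 ± 0.13). HSPE1 had the largest fall, with replicate values of 1.51 and 1.73 in WT and 0.32 and 0.41 in AKAP1 null cells (-1.26 ± 0.16, 95% interval -1.62 to -0.89, adjusted p = 0.00156). CLPP was lower by -0.69 ± 0.14 (adjusted p = 0.0154), with 1.17 and 1.24 in WT and 0.57 and 0.47 in AKAP1 null cells, but this call was lost without any 1 of the 4 replicates, with values from -0.74 to -0.64. DNAJA3 was not called, at 0.34 with an interval of 0.06 to 0.61, next to a median of all genes of 0.19. The background was 6.52% of genes higher and 7.96% lower. Under TMM, which moved the median of all genes to 0.01, it was 2.06% and 10.3%, beside 6 members higher and 2 lower. The chaperonin pair thus moved apart, HSPD1 up and HSPE1 down, although the 2 genes lie on opposite strands of the same stretch of chromosome 2 and their products work in 1 complex. CLPX and CLPP also had opposite signs, where the call on CLPX was lost without either WT replicate. The 2 members that were lower encode the shortest proteins of the group, the 7 that were higher encode proteins of 573 residues or more, and DNAJA3 has 480.

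The comparison rests on 2 replicates a group and on 1 null clone. Over all genes, too, calls in both directions were fewer in each fit that left out 1 replicate. The number of called members fell from 9 to 3 without WT replicate 1 or WT replicate 2, to 4 without AKAP1null replicate 2 and to 7 without AKAP1null replicate 1, while HSPD1, HSPE1 and CLPB were called in all 4 cases, LONP1 and CLPP in none, and the sign of every called member was the same in all 4. TRAP1, AFG3L2 and YME1L1 kept their calls without AKAP1null replicate 1 alone. LONP1 missed the threshold under TMM (adjusted p = 0.067). Of the 29 further mitochondrial genes 27 were tested, 10 were higher and 3 lower, beside 6.52% and 7.96% of all genes. The median of the list was 0.22, close to the 0.19 of all genes (0.05 and 0.01 under TMM). MIPEP (1.59), PITRM1 (1.52), a peptidase that degrades presequences, HSPA9 (1.40), the mitochondrial HSP70 with which DNAJA3 works, and PMPCB (1.34) were the largest. Of 24 cytosolic chaperones tested, HSPA1B (0.70) was higher and HSPB1 (-0.64) lower, with a median of 0.21.

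**Figure D3:**
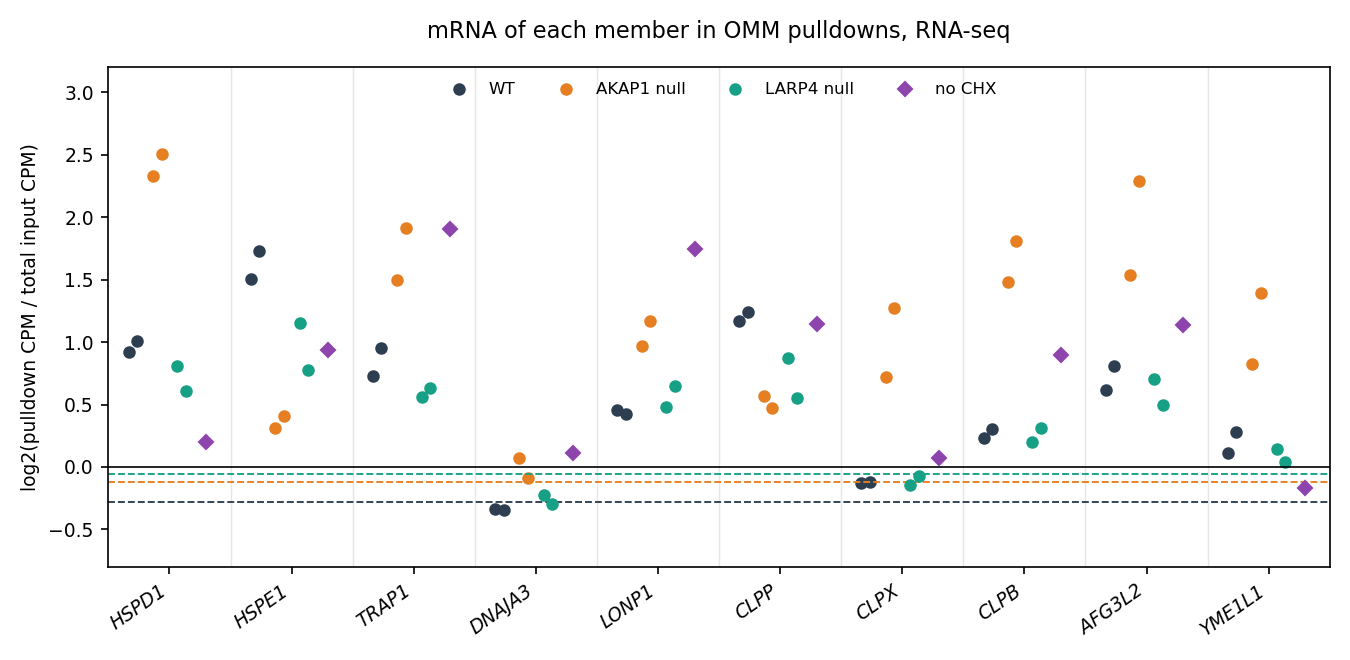
Log2 pulldown over total input of RNA for each member in WT, AKAP1 null and LARP4 null cells (2 replicates each) and in cells without CHX (1 replicate), with dashed lines at the median of all genes. HSPD1 in AKAP1 null cells lies at 2.33 and 2.51, above its other points, and HSPE1 at 0.32 and 0.41 lies below its other points.

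**Figure D4:**
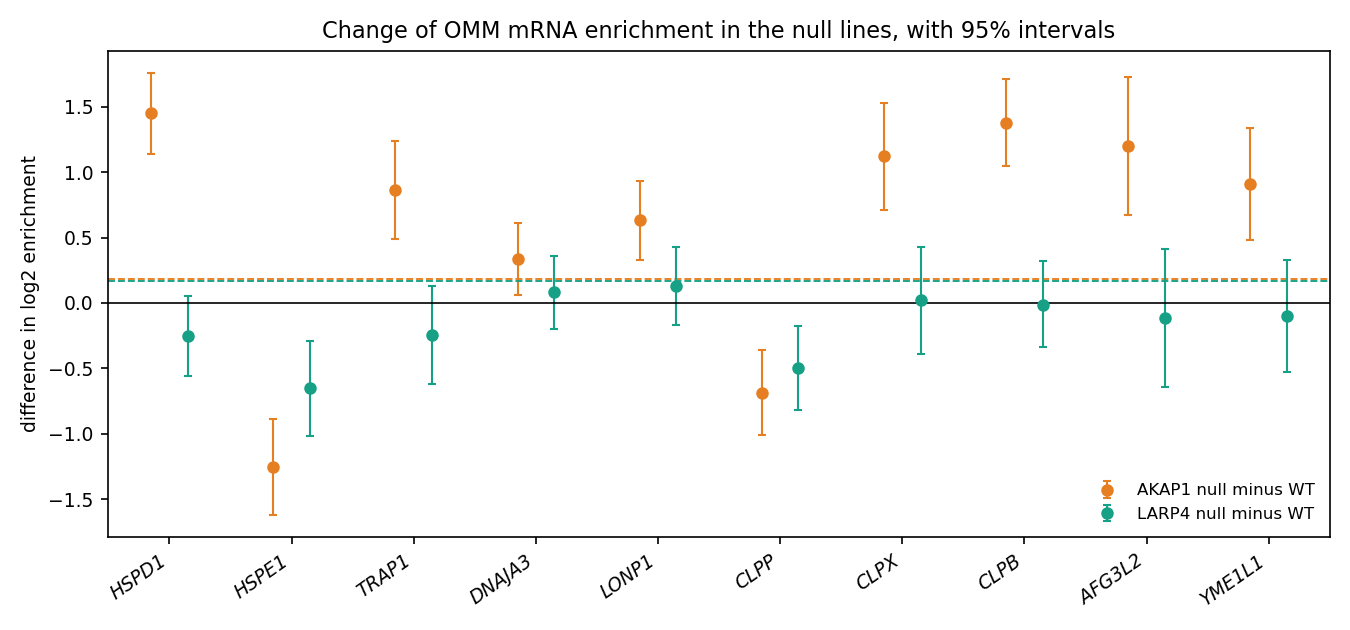
Difference in log2 enrichment between each null line and WT for each member, with 95% intervals from edgeR and dashed lines at the median difference of all genes. In AKAP1 null cells HSPE1 (-1.26) and CLPP (-0.69) lie below 0 and the other 8 above it.

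In LARP4 null against WT enrichment 0 of 10 members were called by edgeR, beside 0% of all 13856 genes higher and 0% lower, with 2270 genes at an unadjusted p below 0.05. DESeq2 called 507 genes and 2 members, both lower. HSPE1 was at -0.65 ± 0.16 (95% interval -1.02 to -0.29, adjusted p = 0.226) and CLPP at -0.50 ± 0.14 (-0.82 to -0.18, adjusted p = 0.291), and the other 8 lay between -0.26 and 0.13. The LARP4null pulldowns were less alike than those of WT (Pearson r across genes 0.9433 against 0.976). Without LARP4null replicate 1, 4521 genes were higher and 1143 lower, HSPE1 and CLPP among the lower, and without replicate 2 these were 3 and 90 genes and 0 members. The 2 null lines were compared with the same WT libraries, so their differences are not independent, and they were not tested against each other for these genes.

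In total input, where fewer cells with a transcript and less of it per cell cannot be told apart in bulk libraries, no member was called in either null line. In AKAP1 null against WT total input 0 of 10 members were called, with log2 differences from -0.22 for CLPX to 0.19 for HSPD1, and 0% of 13977 genes were higher and 0% lower (489 at an unadjusted p below 0.05, and 15 called by DESeq2). In LARP4 null cells 0 members were called, from -0.18 for HSPE1 to 0.32 for CLPB, beside 0.00715% of genes higher and 0.00715% lower.

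Without CHX a single lysate was sequenced, so its values have no replicate check, and the absence of CHX, the shorter pulse and any difference from the gRNA line cannot be told apart. TRAP1 had 329.4 CPM in the total input and 1234.0 in the pulldown, a log2 value of 1.91 against 0.72 and 0.95 in WT with CHX. LONP1 was at 1.74 against 0.46 and 0.42, CLPB at 0.89 against 0.23 and 0.31, and AFG3L2 at 1.14 against 0.62 and 0.81. DNAJA3 (0.11) and CLPX (0.07) were also above both of their WT values, which were -0.33 and -0.35 for DNAJA3 and -0.13 and -0.12 for CLPX. HSPE1 was lower, at 0.93 against 1.51 and 1.73, as were HSPD1, at 0.20 against 0.92 and 1.01, and YME1L1, at -0.17 against 0.11 and 0.28. CLPP, at 1.14 against 1.17 and 1.24, lay close to WT. The median of all genes was -0.13 without CHX and -0.29 and -0.34 with it.

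Across all 13 lysates of both assays, the gene with the most similar log2 values was found for each member among 6425 genes, by the root mean square difference. Each lysate was centred on its median over genes. Ribosome profiling values were those on coding counts, which cover few positions of some members and a merged entry for HSPE1. The closest pairs were HSPE1 with ZNF593 (0.11) and CLPP with ISOC2 (0.11), then DNAJA3 with CCNF (0.17), YME1L1 with PDSS2 (0.19), LONP1 with POLG (0.21), CLPX with NSUN2 (0.23), CLPB with MTERF3 (0.23), TRAP1 with SELENOO (0.31), AFG3L2 with ABCB10 (0.36) and HSPD1 with NDUFA10 (0.45). Over all genes the median difference from a member ran from 0.63 for DNAJA3 to 1.46 for AFG3L2. No member was the nearest gene of another.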

How the data were processed

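Ribosome profiling libraries of 3 locations and RNA-seq libraries of 4 groups were analysed, 26 in all. Per the labels and the study's methods, the authors removed rRNA and tRNA footprints with Bowtie, aligned the rest to GRCh38 with TopHat, and deposited estimated counts per gene region from plastid, masking positions that are not unique. For RNA-seq the authors deposited counts per gene from STAR and featureCounts. The deposited RPKM were used only to check the scale, since their denominator differs: on it, log2 enrichment would be higher by 0.368 and 0.196 at the ER and 0.235 and 0.230 in the cytosol. The deposited score named FPKM was not used. A broken entry, ANK2, was left out of the RNA-seq files.

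CPM used the totals of the counted positions. Tests were edgeR 4.0.16 (quasi-likelihood, R 4.3.3) on rounded counts over all entries, two-sided with Benjamini-Hochberg adjustment, called at an adjusted p below 0.05. All 12 libraries of an assay with CHX shared a fit with a term per lysate, which pairs pulldown and total input as the methods state. Their deviations from group means correlated at 0.6 to 0.86 across genes. Library totals set the scale, and TMM did for total inputs alone. An entry needed 64 counts in both total inputs of ribosome profiling, and in RNA-seq 64 on average over the fitted libraries. Per-lysate RNA values had 0.5 counts added. Sequences, coordinates and proteins are from GENCODE 44 (Biopython 1.88), not the annotation the authors used. Tables and figures used Python 3.11.15, pandas 2.3.3, numpy 2.4.6, scipy 1.17.1 and matplotlib 3.10.9. Alternatives were TMM, DESeq2 1.42.0, a minimum of 10 counts, all exons, the other exon positions (chosen after seeing the data), entries of 1 gene, no lysate term and leaving out each replicate.

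The members, the further 29 mitochondrial and 26 cytosolic genes, the cell markers and the tests were chosen with earlier results of these data known. Further genes are named if they are among the largest called changes of their list. Entries of several genes, 1079 in number, held 5.86% to 8.56% of coding counts.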

Additional observations from a re-analysis of the deposited data

Results flagged for a closer look

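The differences below are listed because the difference between 2 locations or genotypes was itself tested in the edgeR fit and passed an adjusted p of 0.05. Between OMM and cytosol these were HSPE1 (log2 difference 1.35), TRAP1 (1.79), DNAJA3 (-0.69), AFG3L2 (1.76) and YME1L1 (0.33). Between OMM and ER they were HSPE1 (1.54), TRAP1 (2.66), LONP1 (0.70), CLPP (0.52), CLPX (0.65), CLPB (1.24), AFG3L2 (1.22) and YME1L1 (0.56). Between AKAP1 null and WT cells they were HSPD1 (1.45), HSPE1 (-1.26), TRAP1 (0.87), LONP1 (0.63), CLPP (-0.69), CLPX (1.12), CLPB (1.38), AFG3L2 (1.20) and YME1L1 (0.91). In the 4 fits of each comparison that left out 1 replicate, several of these calls were lost. Between OMM and cytosol YME1L1 lost its call in 3 and DNAJA3 in 2, and between OMM and ER LONP1, CLPP and CLPX lost theirs in 3 each. Between AKAP1 null and WT cells LONP1 and CLPP lost theirs in all 4, TRAP1, AFG3L2 and YME1L1 in 3 each and CLPX in 2. The groups of 2 replicates are too small for a test of single samples that stand apart.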

How the results depend on the processing

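Each group has 2 replicates, except the cells without CHX with 1, and at the OMM the pulldown libraries are the shallowest of the ribosome profiling libraries, so the members with the fewest coding counts there (HSPD1, LONP1, CLPX, CLPB, DNAJA3) are the least certain. HSPE1 cannot be separated from its merged entry.

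Without the replicate block, that is without a term per lysate, the called members numbered 4 instead of 7 at the ER, 2 instead of 6 at the OMM, 2 instead of 5 for OMM against cytosol, 3 instead of 8 for OMM against ER and 5 instead of 9 for AKAP1 null against WT. Higher and lower calls over all entries fell as well, from 1585 and 5637 to 1409 and 3335 at the ER. At the OMM they fell from 1269 and 3250 to 579 and 1054. For OMM against cytosol they fell from 1201 and 2685 to 235 and 59. For OMM against ER they fell from 2252 and 1325 to 558 and 889. For AKAP1 null against WT they fell from 903 and 1103 to 98 and 331. Over all comparisons 25 calls of single members were lost and 0 were gained. Replicate numbers pair nothing across genotypes (correlations of deviations 0.21, 0.31 and -0.16 between total inputs), and a replicate block there changed no call of a member but ended the 2 gene calls of LARP4 null against WT total input, LARP4 included.

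Counts over all exons gave 10 called members at the OMM, 1 in the cytosol and 8 for OMM against cytosol, and turned HSPD1 to 1.09 and CLPX to 0.82 at the OMM, CLPX to 1.06 against the cytosol and DNAJA3 to 0.46 against the ER. The exon positions outside the counted coding positions gave 2 called members in the cytosol, beside 246 entries higher and 1783 lower of 5969. There HSPD1 was 1.13, HSPE1 -0.049, CLPX 1.46 and YME1L1 -0.53 at the OMM, TRAP1 was 0.30 in the cytosol, HSPE1 -0.11, DNAJA3 0.004, CLPX 1.95 and YME1L1 -0.34 for OMM against cytosol, and DNAJA3 0.69 and YME1L1 -0.023 for OMM against ER. The cause was not tested.

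At the ER, TMM and DESeq2, which bring the median of all entries near 0 by construction, turned HSPE1 to 0.18 and 0.14, DNAJA3 to 0.60 and 0.55, LONP1 to 0.088 and 0.052, CLPP to 0.58 and 0.55 and YME1L1 to 0.60 and 0.57. Over all exons TMM turned HSPE1 to 0.15 and YME1L1 to 0.53 at the ER and DNAJA3 to 0.056 at the OMM. For OMM against ER both left 4 members called. For LARP4 null against WT DESeq2 called 2 members instead of 0.

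Leaving out 1 replicate gave 1 to 3 called members in the cytosol (HSPD1 from -0.98 without cytosol replicate 2 to 0.83 without replicate 1) and 1 to 2 over all exons, 3 to 6 for OMM against cytosol (HSPD1 from -0.91 without cytosol replicate 1 to 0.91 without replicate 2), 5 to 6 for OMM against ER, 6 to 7 at the ER, 4 to 5 for WT RNA, 3 to 7 for AKAP1 null against WT and 0 to 2 for LARP4 null against WT. Over all alternatives, 929 values of single members kept sign and side of the threshold, 114 lost a call and 39 gained one with the sign kept, 30 turned sign with a call in 1 fit or the other, and 58 turned sign without a call in either.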
